A study of Homo sapiens with 4 samples.

Results

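Integrins are the receptors that hold cells to the extracellular matrix, and the mRNAs of 10 of their subunits were followed in libraries labelled HGC-27, a human gastric cancer cell line. The subunits were chosen by name: ITGA2, ITGA3, ITGA4, ITGA5, ITGA6, ITGAV, ITGB1, ITGB3, ITGB4 and ITGB6. All 10 were found among the 31907 gene names counted in the series. HGC-27 cells were given PBS (2 libraries) or recombinant IL-17B at 200 ng/ml (rIL-17B, 2 libraries), each for 48 h, and the RNA was sequenced after oligo-dT priming and PCR amplification. The comparison asks which transcripts differ after exposure to IL-17B, a ligand of the receptor IL-17RB. By their labels, all libraries come from 1 cell line, and the PBS libraries are the vehicle controls. The labels do not say whether libraries of a group came from separate cultures, so p-values measure the spread between these libraries, which may be technical.

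Every integrin is a pair of 1 alpha and 1 beta subunit, and a subunit without its partner is not brought to the cell surface. The alpha subunit largely sets the ligand. The alpha 5 and alpha V chains bind fibronectin and other proteins with an RGD motif, alpha 4 binds fibronectin and VCAM1, alpha 2 binds collagen and also laminin, and alpha 3 and alpha 6 bind laminins. The beta 1 chain pairs with many alpha chains, beta 3 and beta 6 pair with alpha V, and beta 4 pairs with alpha 6 in the hemidesmosomes of epithelia.

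The libraries held between 12888029 and 17555879 counts. A level is given as CPM, the count divided by the library total and multiplied by 1000000, and 3 counts, taken as the smallest level a library can show, were between 0.171 and 0.233 CPM (counting error only). The library labelled rIL-17B replicate 1 stood apart, and whether it holds treated HGC-27 cells, as labelled, cannot be told from the counts. It differed at least 2-fold from rIL-17B replicate 2 in 2771 of 16361 genes tested, while the 2 PBS libraries differed in 104 (0.5 CPM added to each value). Among the 10664 genes that reached 100 counts in all the other libraries, 342 (3.21%) had 3 counts or fewer in it, ITGA4 and ITGB3 among them. Every value of this library, and every group fold change, is given under that label. Results are therefore given for each library and without this library. Mesenchymal and fibroblast markers summed to 15628 and 15459 CPM with PBS, 636 CPM in rIL-17B replicate 1 and 13283 CPM in replicate 2, with none of the 10 at 0. In replicate 1, VIM (vimentin) had 4089 counts and the collagen gene COL1A2 had 16. The 10 epithelial markers summed to 1005 and 1000.2 CPM with PBS, 2243 CPM in rIL-17B replicate 1 and 1259 CPM in replicate 2. The keratin gene KRT8 led these sums, while the E-cadherin gene CDH1 had between 7 and 11 counts. Not all epithelial markers were higher in replicate 1. KRT19 had 1 count there against 47 and 43 with PBS, CLDN4 had 97 against 107 and 108, and ESRP1 had 0 against 0 and 1. The 10 neural and glial markers summed to 599 and 929 CPM with PBS and to 17.2 and 423 CPM with rIL-17B, with 7 of the 10 at 0 in replicate 1. Leukocyte markers (10 genes) summed to 13.96 and 14.98 CPM with PBS and to 8.62 and 13.4 CPM with rIL-17B. In replicate 1, 6 of these 10 were at 0, and CSF1R alone had 8.14 CPM. Endothelial markers (6 genes) summed to 27.9 and 35.8 CPM with PBS and to 1.30 and 22.7 CPM with rIL-17B. Both lists were low in all 4 libraries, although the labelled protocol speaks of monocytes. The part of these differences in the integrin values was not tested. In bulk RNA, fewer cells of a type and less RNA per cell cannot be told apart.

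The promoters of the subunits differed in base composition. RefSeq windows (GRCh38.p14) were found for 7 of the 10 genes, and ITGA3, ITGB3 and ITGB4 were not matched. The 250 bases before the start annotated by RefSeq are shown for the most abundant subunit (ITGB1), an RGD receptor subunit (ITGAV) and a laminin receptor subunit (ITGA6). Capitals mark every match on either strand to GGGCGG (the GC box bound by SP1), TGANTCA (AP-1), CACGTG (an E-box) or the TATA box (letters TATAAA).
ITGB1: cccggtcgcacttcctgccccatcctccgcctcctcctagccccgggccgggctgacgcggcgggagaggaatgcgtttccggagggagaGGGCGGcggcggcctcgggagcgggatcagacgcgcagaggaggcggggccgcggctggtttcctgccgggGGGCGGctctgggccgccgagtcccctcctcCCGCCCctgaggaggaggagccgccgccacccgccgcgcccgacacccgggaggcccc
ITGAV: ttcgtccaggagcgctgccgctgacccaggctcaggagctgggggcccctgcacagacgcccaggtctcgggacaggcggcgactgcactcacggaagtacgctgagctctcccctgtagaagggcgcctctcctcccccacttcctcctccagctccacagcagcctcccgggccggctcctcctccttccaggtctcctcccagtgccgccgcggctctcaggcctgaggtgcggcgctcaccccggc
ITGA6: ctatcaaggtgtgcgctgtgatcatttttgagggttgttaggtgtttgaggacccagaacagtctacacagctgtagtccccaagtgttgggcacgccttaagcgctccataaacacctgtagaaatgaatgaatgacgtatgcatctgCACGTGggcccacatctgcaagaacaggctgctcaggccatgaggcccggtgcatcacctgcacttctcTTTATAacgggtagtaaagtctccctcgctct
The windows lie at chr10:32958231-32958480 (minus strand), chr2:186589806-186590055 (plus) and chr2:172427086-172427335 (plus). ITGB1, ITGAV and ITGA6 each have a further annotated start, and the first listed was used. RefSeq's starts are not those of GENCODE 29, from which the gene spans below were taken. The windows of ITGAV and ITGA6 lie outside the GENCODE genes, and that of ITGB1 lies inside its gene, with 2 bases in an exon. The windows of ITGA2, ITGA4, ITGA5 and ITGB6 reach 26, 184, 194 and 41 bases into GENCODE exons and are described without their letters. ITGB1 had 78.4% G and C, 32 CpG dinucleotides and 3 GC boxes. ITGAV had 70.8% G and C, 18 CpG and no match to any of the 4 motifs. ITGA6 had 50.8% G and C, 8 CpG, 1 E-box and 1 TATA box. ITGA4 had 72.8% G and C and 25 CpG. ITGB6 had 30.0% G and C and 0 CpG, against a median of 58.0% and 11.0 CpG over 27305 windows, 1 for each gene symbol. A GC box was found in 42.3% of these windows and in 3 of the 7 subunits (ITGA2, ITGA5 and ITGB1), a TATA box in 11.1%, an E-box in 6.49% and an AP-1 match in 6.60%. The matches describe letters in these windows and say nothing of binding.

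Levels were compared between genes per length, as CPM per kilobase of annotated exon (CPM per kb). ITGB1, the shared beta chain (chromosome 10, 32900319 to 33005792, GENCODE 29 on GRCh38), was the most abundant subunit with PBS, at 230.0 ± 9.87 CPM per kb (SD, n = 2 libraries, as for the other PBS levels here). ITGA5, the alpha chain of the main fibronectin receptor, followed at 74.9 ± 0.440 CPM per kb and ITGAV at 52.3 ± 1.99 CPM per kb. The laminin receptor chains ITGA6 and ITGA3 had 15.6 ± 1.34 and 11.4 ± 0.575 CPM per kb. Among the subunits chosen, the PBS libraries thus held far more mRNA for ITGA5 and ITGAV than for the laminin receptor chains ITGA6 and ITGA3. That these libraries hold HGC-27 cells is taken from their labels.

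Below these came ITGB3 at 6.36 ± 0.0479 and the collagen receptor chain ITGA2 at 6.14 ± 0.649 CPM per kb, whose PBS values overlapped. ITGA4 had 2.19 ± 0.0240, ITGB4 1.78 ± 0.409 and ITGB6 0.117 ± 0.0246 CPM per kb. Every other pair of neighbours in this order had PBS libraries that did not overlap. With the length of the longest transcript in place of the exon union, ITGA3 came before ITGA6, and the other subunits held their places. In rIL-17B replicate 2 the order was that of PBS. In rIL-17B replicate 1, ITGAV came before ITGA5, ITGB4 before ITGA2, and ITGA4 and ITGB3 were last.

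**Figure D1:**
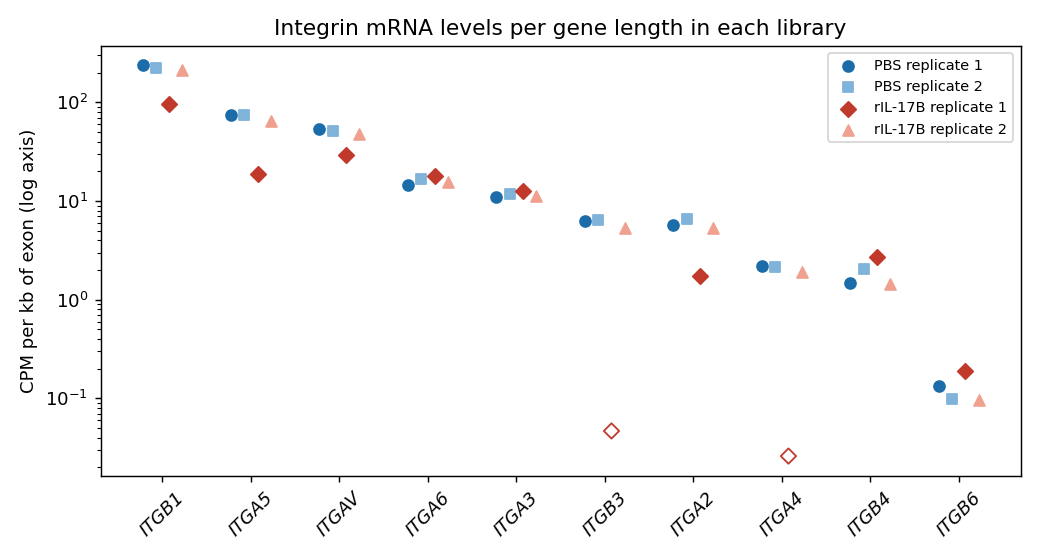
Level of each integrin subunit mRNA in each of the 4 libraries, in CPM per kilobase of exon on a log axis, ordered by the PBS mean. Open symbols stand for 0 counts and are drawn at the level of 3 counts, and ITGB3 and ITGA4 of rIL-17B replicate 1 are at this floor.

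ITGA2, ITGA4, ITGA5, ITGAV, ITGB1 and ITGB3 had lower CPM in each rIL-17B library than in either PBS library. Against the PBS mean they were at least 1.78-fold lower in replicate 1 and at most 1.18-fold lower in replicate 2. ITGA3, ITGA6 and ITGB4, chains of laminin receptors, were not lower in replicate 1. The ligand did not divide the subunits cleanly, since ITGB1 also pairs with the laminin-binding alpha chains and ITGA2 also binds laminin. ITGB6, a partner of alpha V, had 0.889 CPM in replicate 1 against 0.629 and 0.466 with PBS. ITGB8, a further partner of alpha V outside the 10, had 61.9 CPM against 48.3 and 51.1. The rIL-17B and PBS groups were compared with edgeR's quasi-likelihood test, which called none of the subunits tested. ITGB6, an RGD receptor chain of epithelial cells, had between 6 and 13 counts and was too low to be tested, so that 9 of the 10 subunits were. None of the 9 had an adjusted p under 0.05 in edgeR, against 0.0% of all 16361 genes tested. At an unadjusted p under 0.05 there were also 0 subunits (1.38% of all genes), and DESeq2 gave 0 subunits at an adjusted p under 0.05 (0.0% of all genes) and 0 at an unadjusted p under 0.05 (2.79%). Both rIL-17B libraries were below both PBS libraries for 6 of the 9 (ITGA2, ITGA4, ITGA5, ITGAV, ITGB1 and ITGB3), against 27.5% of all genes, and above them for 0 (31.5% of all genes), and the same counts, 6 and 0, were found with TMM-scaled CPM (30.4% and 28.5% of all genes). With 2 libraries a group, the smallest two-sided p of an exact permutation test is 0.333, so none was run for single genes.

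ITGA5, ITGAV, ITGA4 and ITGB3, chains of fibronectin and RGD receptors, had lower CPM in rIL-17B replicate 1 than in either PBS library (40.8% of all genes). ITGA5 (chromosome 12, 54395261 to 54419460) had 569.6 and 564.9 CPM in the PBS libraries and 142 and 495.9 CPM in the treated libraries, in the order replicate 1, replicate 2 as throughout. Both treated libraries were below both controls, replicate 1 by 3.995-fold and replicate 2 by 1.14-fold against the PBS mean. The mean of the PBS group was 567 ± 3.34 CPM, and that of the treated group was 319 ± 250.3 CPM (SD, n = 2 each), so the treated libraries were further from each other than the means were. The log2 fold change of the groups was -0.86 (standard error 0.71, adjusted p = 0.662 in edgeR's test).

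ITGAV, the partner of beta 3, beta 5, beta 6 and beta 8 (chromosome 2, 186590065 to 186680901), had 441 and 418 CPM in the PBS libraries and 241 and 389 CPM in the treated libraries. Its fitted log2 fold change was -0.50 (standard error 0.32, adjusted p = 0.661 in edgeR's test). ITGAV was thus lower by 1.78-fold in replicate 1 and by 1.10-fold in replicate 2.

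ITGA4, the fibronectin and VCAM1 receptor chain (chromosome 2, 181457202 to 181536187), had 277 and 221 counts in the PBS libraries and 0 and 266 counts in the treated libraries. These were 17.4, 17.1, 0 and 15.2 CPM. With 0 taken as 3 counts (0.205 CPM), rIL-17B replicate 1 was 84.2-fold lower than the PBS mean. The upper limit of the exact Poisson 95% interval of this count was higher, at 0.252 CPM. The total of that library was 14615341 counts, and that of PBS replicate 2 was 12888029.

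ITGB3, a vitronectin and fibronectin receptor chain (chromosome 17, 47253846 to 47311816), had 442 and 362 counts in the PBS libraries and 0 and 414 counts in the treated libraries. These were 27.8, 28.1, 0 and 23.6 CPM. Against the PBS mean, rIL-17B replicate 1 was 136-fold lower with 0 taken as 3 counts, and replicate 2 was 1.18-fold lower. The 2 PBS libraries differed by 1.01-fold, less than either treated library did from them. Of its exon bases, 51.57% are shared with AC068234.1 on the same strand, a gene listed in no library, so the counts of ITGB3 depend on how shared reads were treated. The groups did not pass edgeR's test for ITGA4 (adjusted p = 0.776) or ITGB3 (adjusted p = 0.769), with fitted log2 fold changes of -1.19 and -1.25. With a replicate block these were -3.44 and -3.53 (adjusted p = 0.687 and 0.683 in edgeR's test). ITGB6 (chromosome 2, 160099666 to 160200313) had 10 and 6 counts in the PBS libraries and 13 and 8 counts in the treated libraries. The exact Poisson 95% intervals of its CPM overlapped in all 4 libraries, so that no difference was detectable at this depth. Among them were 0.302 to 1.16 in PBS replicate 1 and 0.474 to 1.52 in rIL-17B replicate 1. Of the exon bases of ITGB6, 20.61% are shared on the same strand with AC092153.1, also listed in no library. The counts of ITGB6 thus also depend on how shared reads were treated.

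The collagen and laminin receptor chain ITGA2 (chromosome 5, 52989326 to 53094779) had 44.96 and 52.2 CPM in the PBS libraries and 13.8 and 41.9 CPM in the treated libraries. Both treated libraries were below both controls. Replicate 1 was 3.53-fold and replicate 2 was 1.16-fold below the PBS mean, and the 2 PBS libraries also differed by 1.16-fold. The fitted log2 fold change was -0.84 (standard error 0.64, adjusted p = 0.661 in edgeR's test).

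The shared chain ITGB1 had 1425 and 1341 CPM in the PBS libraries and 583 and 1279 CPM in the treated libraries. It was 2.37-fold below the PBS mean in replicate 1 and 1.08-fold below it in replicate 2, while the 2 PBS libraries differed by 1.06-fold. The mean of the PBS group was 1383 ± 59.3 CPM, and that of the treated group was 931 ± 492 CPM (SD, n = 2 each). The fitted log2 fold change was -0.62 (standard error 0.48, adjusted p = 0.661 in edgeR's test). ITGB1P1, a pseudogene of ITGB1, was listed with 957 and 765 counts in the PBS libraries and 411 and 1068 counts in the treated libraries. These were between 4.22% and 4.82% of the counts of ITGB1 in each library, so a small share of reads could belong to either.

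ITGA3, ITGA6 and ITGB4, whose receptors bind laminins, were not lower in rIL-17B replicate 1. ITGA3 (chromosome 17, 50055968 to 50090481) had 108 and 116 CPM in the PBS libraries and 125 and 110 CPM in the treated libraries (log2 fold change -0.0023, standard error 0.097, adjusted p = 0.99 in edgeR's test). ITGA6 (chromosome 2, 172427354 to 172506282) had 95.7 and 108 CPM in the PBS libraries and 117 and 102 CPM in the treated libraries (log2 fold change 0.03, standard error 0.11, adjusted p = 0.893 in edgeR's test). rIL-17B replicate 1 was thus above both PBS libraries for both genes on plain CPM. With TMM-scaled CPM it lay between them, at 117 against 112 and 118 CPM for ITGA3 and at 109 against 98.9 and 110 CPM for ITGA6. The median log2 ratio of all genes in rIL-17B replicate 1 moved from 0.08 to -0.04 between these scales.

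ITGB4, the hemidesmosome chain (chromosome 17, 75721328 to 75757818), had 160 and 180 counts in the PBS libraries and 265 and 173 counts in the treated libraries. These were 10.1, 13.97, 18.1 and 9.85 CPM, so that replicate 1 was above and replicate 2 below both PBS libraries. This held with TMM-scaled CPM, at 10.4 and 14.3 CPM in the PBS libraries and 16.9 and 10.1 CPM in the treated libraries. The log2 fold change of the groups was 0.13 (standard error 0.36, adjusted p = 0.847 in edgeR's test), and without rIL-17B replicate 1 it was -0.28.

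**Figure D2:**
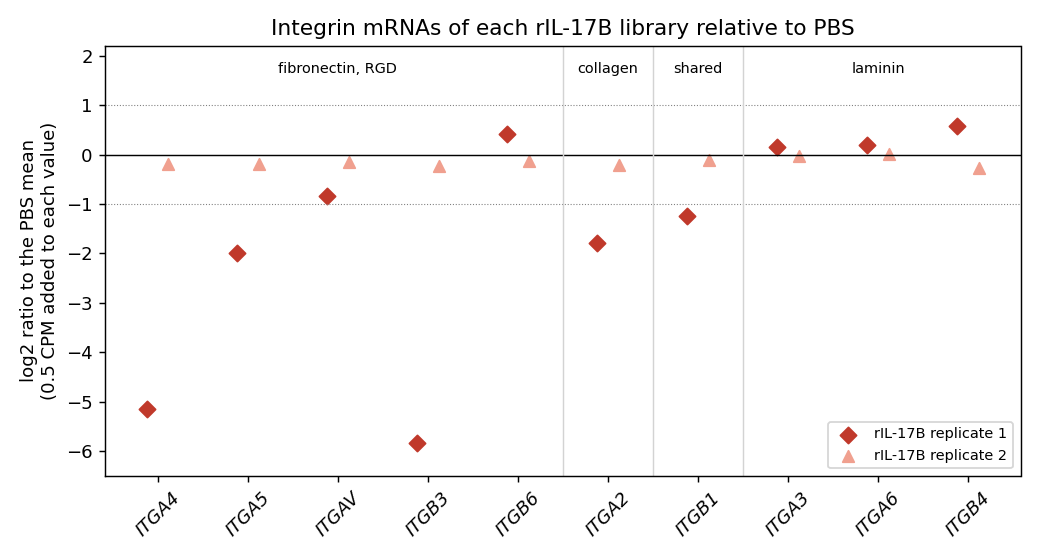
Log2 ratio of each rIL-17B library to the mean of the 2 PBS libraries for the 10 integrin subunits, with 0.5 CPM added to each value, grouped by ligand. Dotted lines mark 2-fold. ITGA4, ITGA5, ITGB3, ITGA2 and ITGB1 of replicate 1 lie beyond 2-fold below PBS, while replicate 2 lies between -0.27 and 0.003 for all 10.

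Each rIL-17B library was then set against the 2 PBS libraries alone, with the spread of the PBS pair standing in for that of the lone library. These fits compare libraries, not the treatment. In rIL-17B replicate 1, 6 of 9 subunits were lower at an adjusted p under 0.05 in edgeR's test (32.8% of all genes) and 1, ITGB4, was higher (24.5% of all genes). The log2 fold change was -2.13 for ITGA5 (standard error 0.09), -1.95 for ITGA2 (0.14), -1.38 for ITGB1 (0.08) and -0.97 for ITGAV (0.08). It was 0.47 for ITGB4 (0.18, adjusted p = 0.016 in edgeR's test), 0.02 for ITGA3 and 0.06 for ITGA6. On plain CPM, replicate 1 was below both controls for 6 of the 9 (40.8% of all genes) and above them for 3 (50.1%), or for 6 and 1 with TMM-scaled CPM (47.7% and 42.5%). At least 2-fold below the PBS mean were 5 of the 9 (18.6% of all genes), and 0 were as far above it (2.61%).

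In rIL-17B replicate 2, that is without replicate 1, 0 of 9 subunits passed in either direction, against 2.38% of all genes lower and 0.642% higher. All 9 fitted log2 fold changes were below 0, from -0.28 for ITGB4 to -0.0015 for ITGA6. ITGA5 came nearest, with a value of -0.20 (0.08 standard error, adjusted p = 0.192 in edgeR's test), and it was the 1 subunit with an unadjusted p under 0.05 (8.56% of all genes were lower by this measure and 5.66% higher). On CPM, replicate 2 was below both PBS libraries for 7 of the 9 (36.1% of all genes) and above them for 0 (37.0%), with ITGA3 and ITGA6 between them. None of the 9 was 2-fold below the PBS mean (0.575% of all genes) or above it (0.0611%).

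The relations between subunits within a library do not depend on the scaling of libraries. ITGA5 and ITGAV together made up 79.4% and 77.2% of the summed level per length of the 6 alpha chains with PBS, 59.8% in rIL-17B replicate 1 and 76.8% in replicate 2. The laminin receptor chains ITGA3 and ITGA6 made up 15.8% and 17.4% with PBS, 38.0% in replicate 1 and 18.3% in replicate 2. The laminin share was thus higher in each treated library than in either control. Replicate 2 lay nearer to PBS replicate 2 than the PBS libraries lay to each other. ITGA6 stood at 0.195 and 0.222 of the level of ITGA5 with PBS, and at 0.952 and 0.239 with rIL-17B. ITGA3 kept close to ITGA6, at 0.752 and 0.715 of its level with PBS and 0.715 and 0.720 with rIL-17B.

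Among the 10 subunits chosen, ITGB1 had the highest level per length in every library. The sums given here leave out other integrin chains, ITGB5, ITGA11 and ITGA2B among them. ITGB1 made up 58.2% and 56.6% of the summed level of the 10 subunits with PBS, and 53.8% and 58.0% with rIL-17B. The sum itself was 407 and 394 CPM per kb with PBS, 180 CPM per kb in rIL-17B replicate 1 and 367 CPM per kb in replicate 2. In every library ITGB1 was above each of the 6 alpha chains, and the alpha sum stood at 0.686 and 0.729 of ITGB1 with PBS, and 0.829 and 0.691 with rIL-17B.

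**Figure D3:**
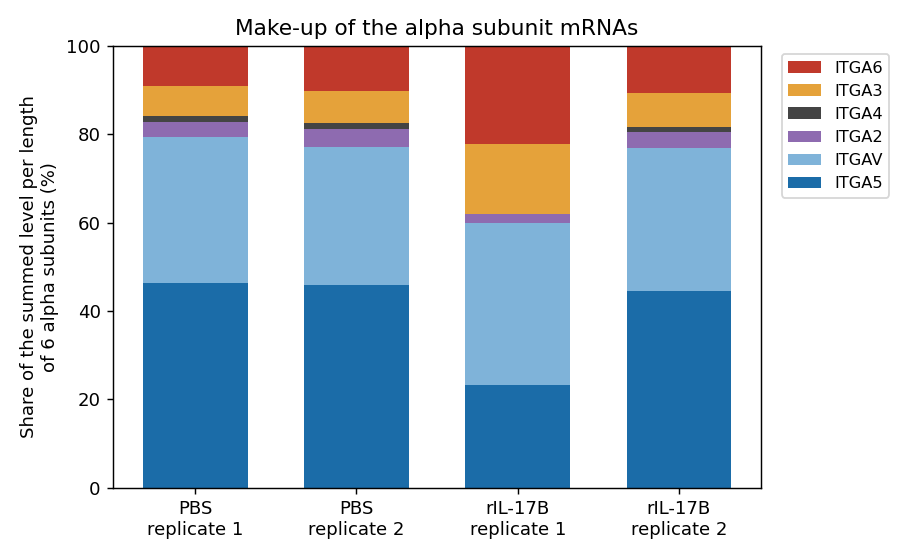
Share of each of 6 alpha subunits in their summed level per length (CPM per kb), in percent, for each library. ITGA3 and ITGA6 take 38.0% in rIL-17B replicate 1 and between 15.8% and 18.3% in the other libraries.

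For each known pair, the scarcer chain shows how much mRNA there was for both. For the fibronectin receptor alpha 5 beta 1, the scarcer chain was ITGA5 in all 4 libraries, at 75.2 and 74.5 CPM per kb with PBS and 18.7 and 65.4 with rIL-17B. For alpha V beta 3 it was ITGB3, at 6.32 and 6.39 CPM per kb with PBS and 0 and 5.37 with rIL-17B. For alpha V beta 5 the scarcer chain was ITGB5, a further RGD receptor chain, in both PBS libraries (49.0 and 47.0 CPM per kb), and ITGAV in both treated libraries (29.4 and 47.4 CPM per kb). ITGB5 itself had 41.1 and 49.3 CPM per kb there. ITGAV had 53.7 and 50.9 CPM per kb with PBS, so outside rIL-17B replicate 1 the chains lay close. Which of them was scarcer also depends on the gene lengths used. With the longest transcript, the PBS mean of ITGAV was 61.1 in place of 52.3 CPM per kb. ITGB5 did not pass the test (log2 fold change -0.15, adjusted p = 0.711 in edgeR's test), and neither did ITGB8, the chain of a receptor for latent TGF-beta (0.07, adjusted p = 0.766 in edgeR's test). The CPM of ITGB8 was 48.3 and 51.1 in the PBS libraries, 61.9 in rIL-17B replicate 1, above both controls, and 48.5 in replicate 2. ITGB5, ITGB8 and ITGAV mRNA were thus all present in rIL-17B replicate 1, in which ITGB3 was at 0. For alpha 6 beta 4 the scarcer chain was ITGB4, at 1.49 and 2.07 CPM per kb with PBS and 2.68 and 1.46 with rIL-17B.

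Of the 16 other integrin subunits, 13 were tested, 0 passed, and 8 had both treated libraries below both controls (27.5% of all genes). The opposite was found for 1 (31.5% of all genes), ITGAE, the chain that binds E-cadherin on lymphocytes. In rIL-17B replicate 1, 9 of the 13 were at least 2-fold below the PBS mean (18.6% of all genes). The laminin receptor chain ITGA7 had 303 and 383 counts in the PBS libraries and 27 and 234 counts in the treated libraries (log2 fold change -1.70, adjusted p = 0.661 in edgeR's test). With rIL-17B replicate 2 alone set against PBS, the log2 fold change of ITGA7 was -0.86. Its CPM was 19.1 and 29.7 in the PBS libraries and 13.3 in replicate 2. The controls thus lay further apart than replicate 2 lay from PBS replicate 1. ITGA8, an RGD receptor chain, and ITGA10, a collagen receptor chain, had log2 fold changes of -1.48 and -1.37 in the groups, while ITGA9 (0.03), ITGB8 (0.07) and ITGAE (0.37) were at the other end. ITGA11 and ITGA2B were chosen after their values were seen. With PBS, ITGA11 had 30.2 and 30.0 CPM per kb and ITGA2B 27.1 and 27.0, above ITGA6 and ITGA3. ITGA11, a collagen receptor chain that pairs with beta 1, had 5214 and 4197 counts in the PBS libraries and 22 and 4786 counts in the treated libraries, and ITGA2B, a partner of beta 3, had 2395 and 1935 counts in the PBS libraries and 37 and 2605 counts in the treated libraries. Laminin receptor chains were thus not all alike in rIL-17B replicate 1, since ITGA7 was low there and ITGA3 and ITGA6 were not.

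The matrix ligands of these receptors lay further below PBS in rIL-17B replicate 1 than the receptors did, by their medians. Of 32 ligand genes, 29 were tested, 0 passed, and both treated libraries were below both controls for 21 and above them for 2 (27.5% and 31.5% of all genes). In rIL-17B replicate 1 the median log2 ratio to PBS of the ligands was -1.89, that of the 9 integrin subunits was -1.24 and that of all genes was 0.08. FN1 (fibronectin), the ligand of the ITGA5 receptor, had 526938 and 418314 counts in the PBS libraries and 2172 and 481910 counts in the treated libraries (log2 fold change -1.25, adjusted p = 0.769 in edgeR's test). The lowest log2 fold changes were those of NPNT (nephronectin, -1.75) and SPP1 (osteopontin, -1.62), both RGD proteins. COL1A1 and COL1A2 are in the ligand and the mesenchymal list alike. 3 laminin chain genes were at the other end, with log2 fold changes of 0.58 for LAMA1, 0.28 for LAMB3 and 0.12 for LAMA3 (adjusted p = 0.661, 0.661 and 0.698 in edgeR's test). LAMA1 had 401 and 347 counts in the PBS libraries and 793 and 504 counts in the treated libraries, and was 2.08-fold above the PBS mean in replicate 1. Without rIL-17B replicate 1, 6 of the 29 ligands were lower at an adjusted p under 0.05 in edgeR's test (2.38% of all genes) and 0 higher. They were FN1, COL1A1, COL4A1, SPP1, NPNT and CTGF (CCN2), with log2 fold changes between -0.77 and -0.26. The PBS libraries themselves lay apart for NPNT (7.61 and 13.2 CPM, against 6.04 in replicate 2) and SPP1 (43.1 and 60.5, against 30.3). For FN1, COL1A1, COL4A1 and CTGF they lay nearer to each other than to replicate 2.

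Inside the cell, integrins are switched on by talin and kindlins and signal through focal adhesion kinase and its partners. Of 30 adaptor and kinase genes, 29 were tested, 0 passed, and both treated libraries were below both controls for 16 and above them for 7 (27.5% and 31.5% of all genes), or for 18 and 6 with TMM-scaled CPM (30.4% and 28.5%). TGFB1I1 (-1.03), SRC (-0.97) and LIMS2 (-0.93) had the lowest log2 fold changes, and TNS4 (0.76), ACTN4 (0.28) and FYN (0.19) the highest. PTK2, the focal adhesion kinase, had 1209 and 1013 counts in the PBS libraries and 824 and 1237 counts in the treated libraries (log2 fold change -0.35, adjusted p = 0.661 in edgeR's test).

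Of 15 activators and inhibitors, all were tested, 0 passed, and both treated libraries were below both controls for 6 and above them for 6 (27.5% and 31.5% of all genes), or for 6 and 5 with TMM-scaled CPM (30.4% and 28.5%). TLN1 (talin 1) had 10095 and 8403 counts in the PBS libraries and 3710 and 10417 counts in the treated libraries (log2 fold change -0.65, adjusted p = 0.661 in edgeR's test). The lowest log2 fold changes were those of APBB1IP (-1.23), FERMT3 (-1.17) and KANK1 (-0.79). The highest were those of the kindlin gene FERMT1 (0.77), ITGB1BP1 (0.39), whose product binds the beta 1 tail, and TLNRD1 (0.28). FERMT1, the kindlin of epithelia, had 230 and 196 counts in the PBS libraries and 489 and 357 counts in the treated libraries, and FERMT3, the kindlin of blood cells, had 907 and 762 counts in the PBS libraries and 27 and 879 counts in the treated libraries. FERMT1 was the 1 gene of the 4 lists with an unadjusted p under 0.05 (1.38% of all genes). In rIL-17B replicate 1 the median log2 ratio to PBS was -0.38 for the adaptors and kinases and -0.04 for the activators and inhibitors, and in replicate 2 the medians were -0.12 and -0.01.

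**Figure D4:**
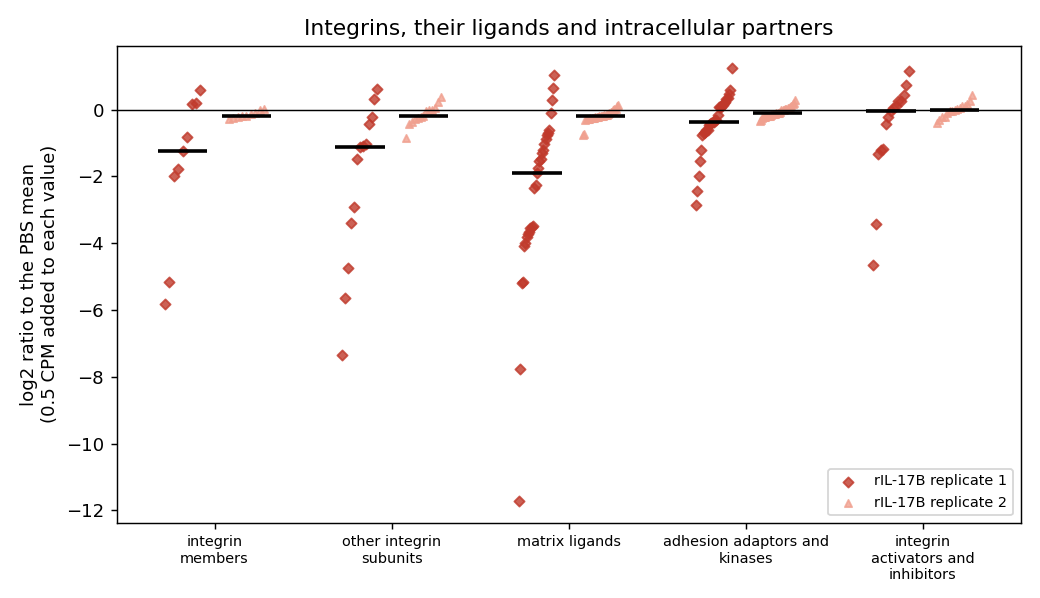
Log2 ratio to the PBS mean (0.5 CPM added to each value) of the tested genes of 5 lists in each rIL-17B library. Each symbol is a gene and black bars are medians, which in replicate 1 were -1.24 for the integrin members, -1.14 for other subunits and -1.89 for the matrix ligands.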

How the data were processed

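RNA-seq was analysed for 4 libraries of HGC-27 cells, 2 given PBS and 2 given rIL-17B (200 ng/ml) for 48 h, grouped by their labels. The deposited files hold counts, the whole number of reads per gene name, which the authors did not normalize, and genes at 0 are not listed. The submitters' processing notes name hg38, Bowtie2 2.2.3, HISAT2 2.1.0, TopHat2 and HTSeq 0.6.0, with no role or order. Annotation and strand use are not given in the sources used here, so reads of overlapping or near-identical genes are uncertain. Repeated names (83 to 98 per library) were kept once, and 22 to 25 numeric names per library were left out. Missing genes were given 0 counts. The totals were then between 12888029 and 17555879.

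CPM uses these totals, and gene lengths and positions are those of GENCODE 29. rIL-17B and PBS were compared in R 4.3.3 with edgeR 4.0.16 (TMM, filterByExpr, quasi-likelihood F test, two-sided, Benjamini-Hochberg adjustment over 16361 genes, threshold 0.05), which was tested on simulated data. The standard error is the size of the log2 fold change divided by the square root of F. Fold changes of the tests are on the TMM scale. Alternatives were DESeq2 1.42.0, other normalizations and filters, a replicate block and leaving out each library. Levels were described with Python 3.11.15. From each further gene list, the 3 highest and 3 lowest fold changes and FN1, TLN1, PTK2, ITGB5 and ITGB8 were named. No gene of these lists was at least 2-fold from PBS on 1 side in both rIL-17B libraries. The members and lists were chosen with earlier results of these data known.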

Additional observations from a re-analysis of the deposited data

How the results depend on the processing

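Depth limits ITGB6, which was too low to be tested, and ITGA4 and ITGB3, whose 0 counts in rIL-17B replicate 1 give bounds only. Of the 16361 genes tested, 0 passed an adjusted p of 0.05 in edgeR, and this count of 0 held with an adjusted p under 0.1, upper-quartile factors, library totals, no filter, at least 10 counts in every library and DESeq2, as it did for the subunits and for the genes of the other lists. A fit with a replicate block gave 0 genes and 0 subunits past the threshold. The deviations of same-numbered libraries had a correlation of 0.083 across genes, and with 2 pairs the numbers were not taken to pair the samples. The block moved ITGA4 from -1.19 to -3.44 and ITGB3 from -1.25 to -3.53 on the log2 scale, neither past the threshold, and the genes with an unadjusted p under 0.05 from 226 to 173.

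Leaving out 1 library in turn gave between 0 and 9376 genes, between 0 and 7 subunits and between 0 and 69 genes of the other lists past the threshold. The highest counts are those without rIL-17B replicate 2. Without rIL-17B replicate 1 there were 495 genes, 0 subunits and 8 genes of the other lists, and without either PBS library 0 of each. Without either PBS library 1 sample of that arm is assumed to vary like the rest.

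Of 88 recomputed fold changes of the 9 subunits, 71 had the same sign and the same side of the threshold. The sign turned for ITGA3 with upper-quartile factors (0.0032), library totals (0.070) and no filter (0.0053), and for ITGA6 with at least 10 counts in every library (-0.012). Without 1 library each, the log2 fold change was between -0.044 and 0.041 for ITGA3, -0.049 and 0.11 for ITGA6 and -0.28 and 0.47 for ITGB4. ITGA4 and ITGB3 were not in the fit with at least 10 counts in every library. The cause of these sign changes was not tested, and none of these values passed the threshold except that of ITGB4 without rIL-17B replicate 2 (0.47).

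Without the added 0.5 CPM, 677 genes were at least 2-fold above PBS in rIL-17B replicate 1, in place of 427, and in replicate 2 there were 340 below and 88 above, in place of 94 and 10. The added value damps the ratios of low genes by construction. Of 40 recomputed group means of CPM, 34 moved by less than the SD, and of 10 levels per length 7 moved by more with the longest transcript.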
